A study of Mus musculus with 8 samples.

Results

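The proteasome genes described here were chosen by symbol: every mouse gene whose symbol begins with Psma, Psmb, Psmc, Psmd or Psme and that had a probe set naming it alone. This gave 42 of the 8251 genes named in that way on the array, carried by 53 of 12488 probe sets. Each gene was read from its brightest probe set by mean over the 8 arrays. Of the 42, 40 encode parts of the proteasome, its activators or its assembly factors. The other 2 encode none of these: Psmc3ip encodes a partner of the meiotic recombinases, and Psme3ip1 a protein that binds a proteasome activator.

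RNA from mouse testis was hybridised to 8 Affymetrix arrays, 2 for each of 4 genotypes. The wild-type mice carried both Ku86 and Terc. The Ku86 knockout mice were Ku86(-/-) with wild-type Terc, and Ku86 is the product of Xrcc5, a protein that binds broken DNA ends. The Terc knockout mice were Terc(-/-), without the RNA template of telomerase, had wild-type Ku86 and were of generation 3 of that deficiency. The double knockout mice were Ku86(-/-) and also Terc(-/-) of generation 3. Strain, age and the design of either allele are not given in the sources used here. One array, double knockout replicate 1, held a pool of 3 mice, and the scanner records call the material germ cells where the labels say testis. Nothing says whether the other replicates were separate animals, so p-values measure only the spread between these samples, which may be technical.

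The proteasome is the protease that removes proteins tagged with ubiquitin from the cytosol and nucleus. Its core is a barrel of alpha rings, which form the gate, around beta rings, which hold the proteolytic sites, and a cap of ATPases and non-ATPases receives, unfolds and feeds the substrate. Interferon gamma induces the immunoproteasome, in which Psmb8, Psmb9 and Psmb10 replace the catalytic subunits of Psmb5, Psmb6 and Psmb7, and which works with the activator of Psme1 and Psme2. Male germ cells also carry a spermatoproteasome, with the alpha subunit Psma8 and the activator Psme4 (PA200), which is linked to histone removal in spermatids.

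Signals are intensities on a linear scale in arbitrary units. Values under a floor of 11.8, the pooled 20th percentile, were raised to it before log2 was taken, and genes with a mean log2 signal under that of 38.1, the pooled 40th percentile, were not tested. Median signal per array ran from 49.6 to 73.0, and from 15.6% to 26.0% of probe sets lay at or under the floor, with wild type replicate 1 at the low end of signal and the high end of floored values. That array was a repeat hybridisation scanned alone on the last of 3 days. Ku86 knockout replicate 1 and double knockout replicate 1 were scanned on day 1 and the other 5 arrays on day 2, with every genotype among them. Day 2 held both Terc knockout arrays but only replicate 2 of wild type, Ku86 knockout and double knockout. Values for scan day 2 alone therefore rest on single arrays of those genotypes, without a replicate. Xrcc5 went against its label, with a mean signal of 390.2 where the label says Ku86 knockout (4 arrays) and 51.0 on the remaining 4, so Ku86 knockout and double knockout name the arrays by label throughout. No label says which exons the allele lacks, so it is unknown here whether the probe set reads a deleted stretch. Terc had 0 probe sets, so its label could not be checked, and arrays with and without Terc are also named by label. The tissue label was checked on marker genes: summed signal of 10 spermatid genes ran from 64126 to 78742. For Sertoli cells, 13 marker genes summed to between 2366 and 2368 on the wild-type arrays, between 2759 and 3925 on the single knockout arrays and between 4412 and 5451 on the double knockout arrays. For peritubular, vascular and matrix cells, 10 genes summed to between 760 and 766, between 861 and 1408, and between 1894 and 1999 in the same order. Spermatogonial markers summed to between 726 and 730, between 743 and 1015, and between 1088 and 1373. No marker of these lists was called by limma in any of the 3 comparisons with wild type. All 3 sums were above wild type on every knockout array and highest on the double knockout arrays. Of 13 tested Sertoli genes, 13, 12 and 12 had log2 differences above 0 for Terc, Ku86 and double knockout. Of 9 tested peritubular, vascular and matrix genes, 7, 8 and 9 did. Leydig sums broke this order, at 775 on Ku86 knockout replicate 1 and 816 on wild type replicate 1. On double knockout replicate 2 the Leydig sum was 999.3, below 1495.6 on Terc knockout replicate 2. Spermatocyte sums ran from 16758.4 to 21433.6, both on Terc knockout arrays. The part of any sum in the proteasome values was not tested. In whole tissue fewer cells of a type and less RNA per cell cannot be told apart.

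No proteasome gene differed between genotypes at the threshold used. Of the 42 genes, 37 passed the filter and were tested with limma on all 8 arrays, and 0 reached an adjusted p under 0.05 in any of 7 tests. Psmc4, Psmd2, Psmb8, Psmb9 and Psme1 lay under the filter. The share of all 7282 tested probe sets called was 0.0275% for Terc knockout, 0.0412% for Ku86 knockout and 0.0275% for double knockout against wild type, 0.0137% for the Terc effect averaged over Ku86 genotypes, and 0% for the averaged Ku86 effect, the interaction and the test of any difference. The count of 0 proteasome genes is therefore near the background of the array, where almost nothing was called.

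At an unadjusted limma p under 0.05, without correction for the number of genes, 2 of the 37 genes passed for Terc knockout, 2 for Ku86 knockout and 5 for double knockout. As shares these were 5.41%, 5.41% and 13.5%, beside 6.8%, 5.73% and 8.93% of the 5530 tested genes. In the averaged effects 2 genes passed for Terc and 2 for Ku86, beside 5.44% and 5.08% of all genes. The interaction also gave 2, beside 4.63%, and the test of any difference 3, beside 4.79%.

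The ratio of the highest to the lowest array had a median of 1.53 over the 37 genes and 1.88 over all tested genes. It was under 1.5 for 16 of the 37 (43.2%), against 19.9% of all genes, and over 2 for 8 (21.6%), against 42.5%. The median standard deviation between replicates on the log2 scale was 0.19 for proteasome genes and 0.29 for all genes. Brighter probe sets vary less on such arrays, and the proteasome genes were brighter, with a median mean signal of 590 against 187 for all tested genes. The part of brightness in the smaller spread was not tested. The smallest ratio, 1.17, belonged to Psmd13 and the largest, 3.90, to Psmd12, both of the cap.

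**Figure D1:**
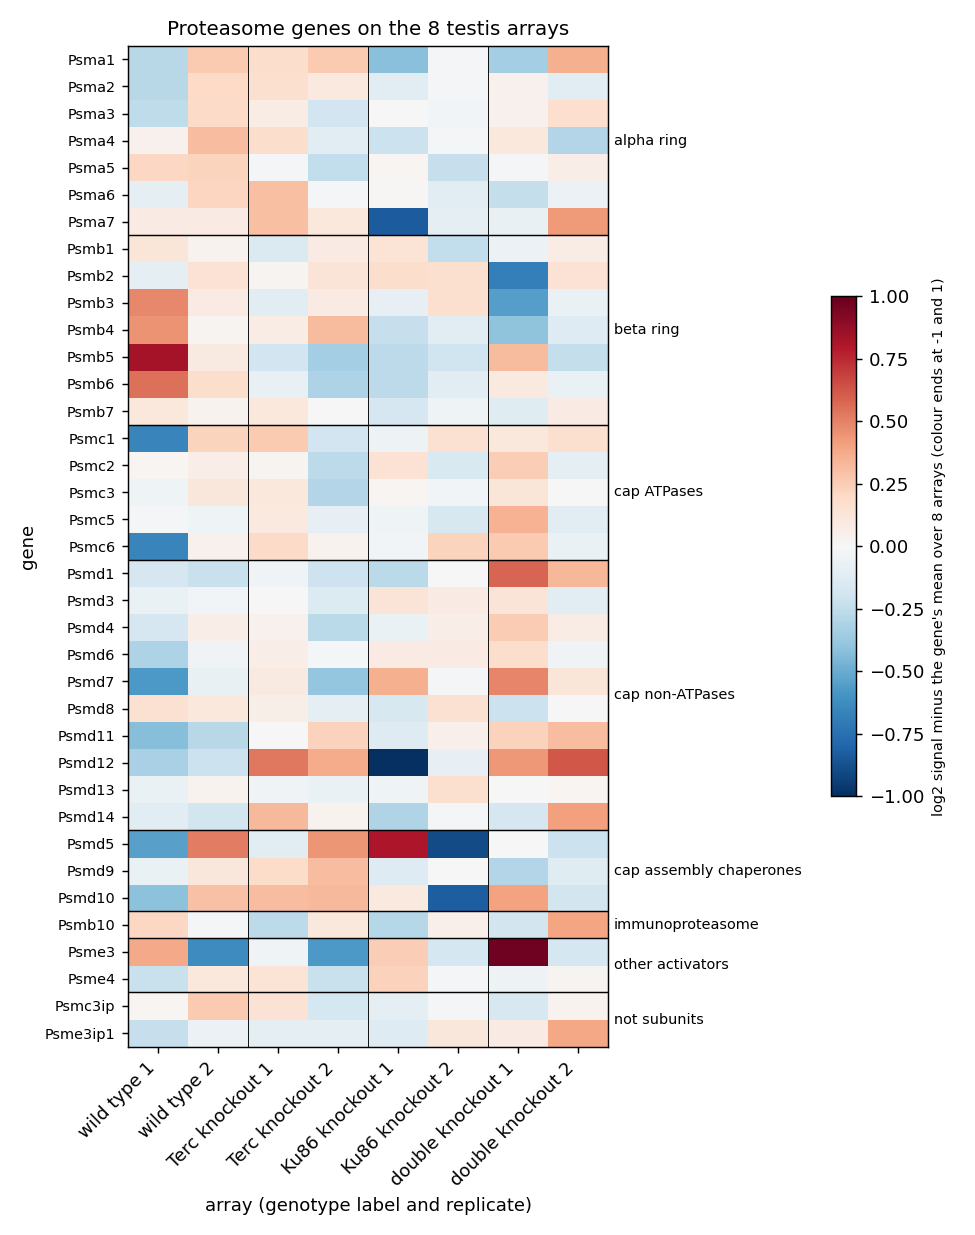
Each row is 1 of the 37 tested genes and each column 1 of the 8 arrays; colour is the log2 signal minus the gene's mean over all arrays, with the scale ending at -1 and 1. The rows of Psmb3, Psmb4, Psmb5, Psmb6 and Psmb7 are highest on wild type replicate 1 and those of Psmb1 and Psmb2 on Ku86 knockout replicate 1, Psmd1 and Psmd11 are reddest on double knockout arrays, and most other rows are pale, as the median ratio of 1.53 between highest and lowest array says.

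In the beta ring, the 7 constitutive genes read at or below wild type in most comparisons. Their median log2 difference was -0.10 for Terc knockout, -0.24 for Ku86 knockout and -0.35 for double knockout, where the medians of all tested genes were 0.09, 0.08 and 0.08. Of the 7, 1, 1 and 0 lay above 0, and 0 were called. The median deviation of the 7 genes from their own means was 0.45 on wild type replicate 1, 0.08 on wild type replicate 2 and between -0.17 and 0.08 on the 6 knockout arrays. Without wild type replicate 1 the medians were -0.0651 for Terc knockout, -0.15 for Ku86 knockout and -0.16 for double knockout. With all probe sets of each gene averaged they were -0.0188, -0.0501 and -0.0934.

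Psmb5 encodes the subunit with chymotrypsin-like activity, the target of bortezomib. Its brighter probe set, 101558_s_at, read 1700 and 1017 on wild-type arrays, 836 and 753 on Terc knockout arrays, 796 and 830 on Ku86 knockout arrays, and 1188 and 807 on double knockout arrays. Both single knockouts lay below both wild-type arrays, while the double knockout overlapped them. The log2 difference was -0.73 ± 0.26 (SE) for Terc knockout, with a limma adjusted p of 0.672, and -0.69 ± 0.26 for Ku86 knockout, with an adjusted p of 0.802. For double knockout it was -0.42 ± 0.26, with an adjusted p of 0.719. On the arrays of scan day 2 alone the same differences were -0.36, -0.29 and -0.33. Without wild type replicate 1, the array at 1700, they were -0.36, -0.32 and -0.0543.

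The dimmer Psmb5 probe set, 160559_at, went the other way. It read 95.3 and 121 on wild-type arrays, 161 and 287 on Terc knockout arrays, 164 and 160 on Ku86 knockout arrays, and 115 and 152 on double knockout arrays. Both single knockouts lay above wild type here. Its log2 difference for Terc knockout was 1.00, and averaging both probe sets gave 0.14 for the gene. The direction of Psmb5 in Terc knockout testis therefore depends on the probe set, and which of them reads the transcript better was not tested.

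Psmb6 encodes the subunit with caspase-like activity. It read 2223 and 1712 on wild-type arrays, 1437 and 1227 on Terc knockout arrays, 1264 and 1407 on Ku86 knockout arrays, and 1624 and 1445 on double knockout arrays. All 6 knockout arrays were below both wild-type arrays. The log2 difference was -0.56 ± 0.19 (SE) for Terc knockout, -0.55 ± 0.19 for Ku86 knockout and -0.35 ± 0.19 for double knockout, with limma adjusted p of 0.672, 0.802 and 0.672. Within scan day 2 they were -0.37, -0.28 and -0.24, and without wild type replicate 1 they were -0.37, -0.36 and -0.16.

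Psmb7 encodes the remaining catalytic subunit, with trypsin-like activity. Its signal was 983 and 937 in wild type, 980 and 915 in Terc knockout, 810 and 884 in Ku86 knockout, and 838 and 965 in double knockout. The arrays covered a narrow range, and only the Ku86 knockout pair lay wholly below wild type. The 95% interval of its log2 difference ran from -0.43 to 0.39 for Terc knockout, from -0.59 to 0.23 for Ku86 knockout and from -0.50 to 0.31 for double knockout.

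Psmb3 and Psmb4 encode structural subunits without proteolytic activity. Psmb3 read 778 and 589 on wild-type arrays, 518 and 590 on Terc knockout arrays, 525 and 623 on Ku86 knockout arrays, and 381 and 531 on double knockout arrays. Only the double knockout pair was wholly below wild type, at a log2 difference of -0.59 ± 0.24 (SE) and a limma adjusted p of 0.517. Without wild type replicate 1 the difference was -0.39, and on scan day 2 alone, which leaves out that array and the pooled one, it was -0.15. Psmb4 read 2701 and 2007 in wild type, 2077 and 2459 in Terc knockout, 1685 and 1833 in Ku86 knockout, and 1490 and 1804 in double knockout on probe set 98557_f_at. Its 4 values under a Ku86 knockout label were all below the other 4, the single member of the 37 (2.7%) to separate in that direction, beside 1.54% of all tested genes.

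Mean Psmb4 signal was 1703 ± 156 (SD, n = 4) under a Ku86 knockout label and 2311 ± 328 (SD, n = 4) under a label with wild-type Ku86. The averaged log2 effect was -0.43 ± 0.14 (SE), with a limma adjusted p of 0.900. Within scan day 2 the effect was -0.23. A second Psmb4 probe set, 98556_at, read between 13.2 and 69.0 over the 8 arrays and gave an averaged effect of 1.11, so the mean of both probe sets was 0.34, above 0. The remaining beta genes, Psmb1 and Psmb2, were not called, and a second Psmb1 probe set differed from the first in the double knockout, at 0.68 against -0.07.

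**Figure D2:**
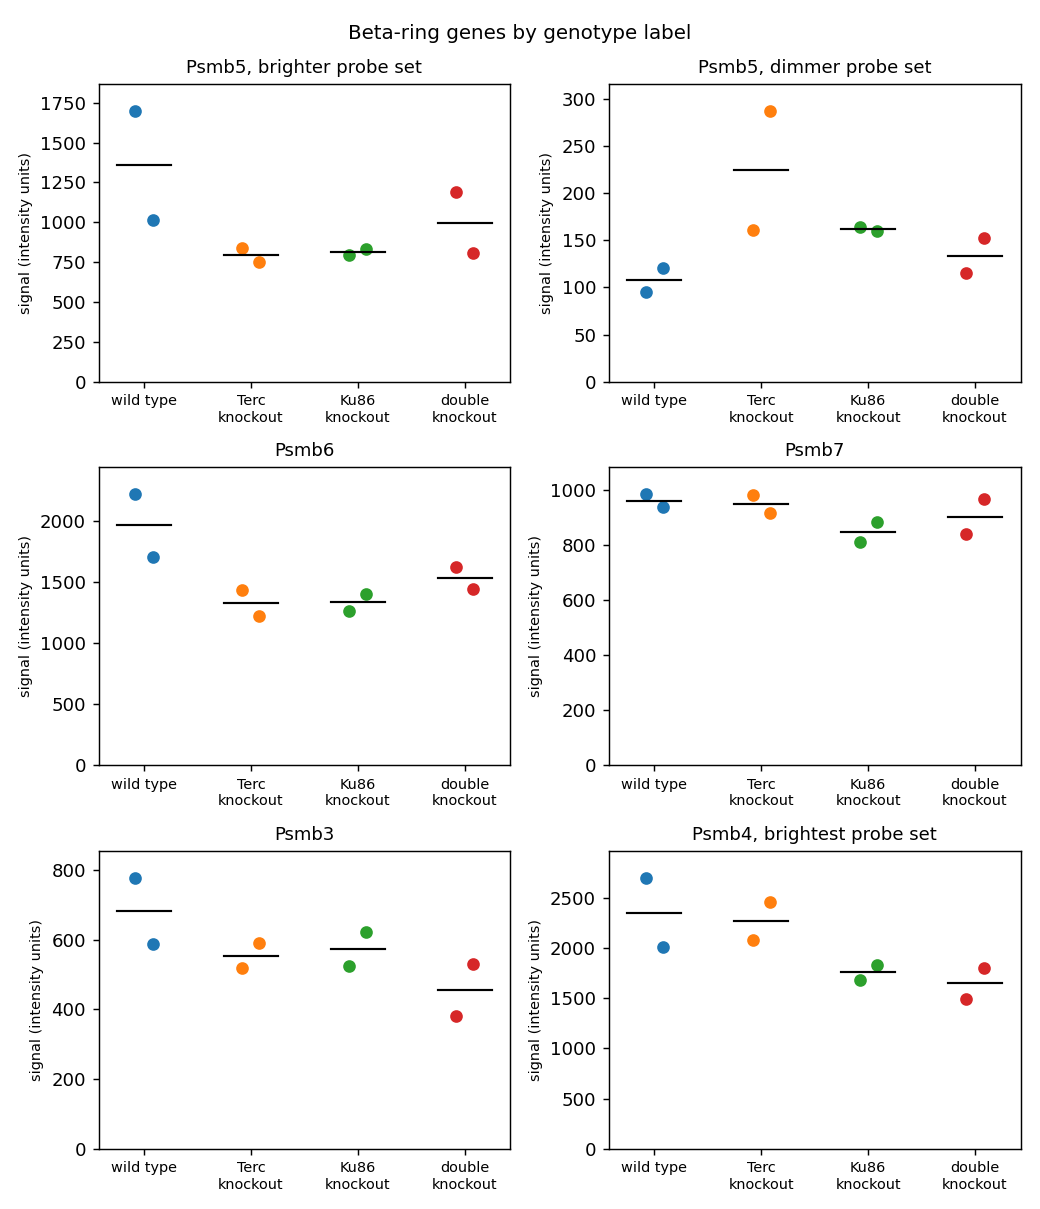
Signal in linear intensity units on each array (points, 2 per genotype label) with the genotype mean (bar), for 5 beta-ring genes and both tested Psmb5 probe sets; each axis starts at 0. Psmb6 is below wild type on all 6 knockout arrays, and the 2 Psmb5 probe sets slope in opposite directions from wild type to Terc knockout.

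Promoter letters of Psmb5 and Psmb6 are shown because both genes read below wild type on their brightest probe sets in the same comparisons, and because proteasome genes are known targets of Nfe2l1 (Nrf1), which binds the antioxidant response element. Each line holds the 250 bases before the RefSeq start, from assembly GRCm38.p6, 5′ to 3′ on the gene's strand. Capitals mark the core TGACNNNGC, searched on both strands. The Psmb5 window is chr14:54617996-54618245 on the minus strand and the Psmb6 window chr11:70525107-70525356 on the plus strand.
Psmb5: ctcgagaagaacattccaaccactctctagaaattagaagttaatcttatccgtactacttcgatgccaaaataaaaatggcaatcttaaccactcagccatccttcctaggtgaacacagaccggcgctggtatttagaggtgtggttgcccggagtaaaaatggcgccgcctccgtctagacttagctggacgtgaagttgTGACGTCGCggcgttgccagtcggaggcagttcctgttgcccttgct
Psmb6: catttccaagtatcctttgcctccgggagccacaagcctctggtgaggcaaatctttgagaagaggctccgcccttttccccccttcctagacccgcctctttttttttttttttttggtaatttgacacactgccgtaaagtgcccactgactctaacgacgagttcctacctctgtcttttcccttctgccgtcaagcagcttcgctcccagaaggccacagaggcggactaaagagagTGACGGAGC
Each window holds 1 match. Windows were listed for 36 of the 42 genes, all but Psmb1, Psmb2, Psmb7, Psmc3, Psmd3 and Psmd7. The 34 of these that encode proteasome parts had 36 windows, and 5 (13.9%) held the core, against 10.2% of the 32851 windows in the table. In the core particle and cap it was 4 of 27 windows (14.8%), those of Psmb5, Psmb6, Psmc6 and Psmd12. The box CCAAT, also searched on both strands, was in 13 of the 36 (36.1%) and in 33.8% of all windows. A match is a stretch of letters and not a measured binding site. Nfe2l1 itself was tested and not called, with log2 differences of 0.10, 0.26 and 0.11 for Terc, Ku86 and double knockout.

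In the alpha ring, 7 genes were tested and 0 called. Their median log2 difference was 0.08 for Terc knockout, -0.21 for Ku86 knockout and 0.01 for double knockout, with 4, 1 and 4 of 7 above 0. The Terc median changed sign to -0.07 with the arrays centred on the median of tested probe sets and to -0.26 with centring over all probe sets. Psma5 was the alpha gene below both wild-type arrays in all 3 comparisons, with 538 and 545 in wild type, 460 and 393 in Terc knockout, 473 and 397 in Ku86 knockout, and 461 and 489 in double knockout. Its Terc knockout difference was -0.35 ± 0.21 (SE), at a limma adjusted p of 0.681. Psma7 had the widest range of the ring, from 91.2 on Ku86 knockout replicate 1 to 219 on double knockout replicate 2, a ratio of 2.40. Psma8, the testis form of the alpha subunit Psma7, had no probe set.

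The ATPases of the cap form the ring that unfolds substrates. Psmc1, Psmc2, Psmc3, Psmc5 and Psmc6 were tested, 0 were called, and their median log2 differences were 0.04, -0.04 and 0.15 for Terc, Ku86 and double knockout. In the double knockout all 5 lay above 0 as deposited, from 0.03 to 0.41, but the median was -0.11 with centring over all probe sets and on scan day 2 alone. Psmc1 and Psmc6 read lowest on wild type replicate 1, at 168 against 233 to 319 elsewhere and at 431 against 653 to 818. The other ATPases showed no such gap: Psmc3, for example, ran from 2192 to 2930, with the lowest value on Terc knockout replicate 2. Psmc4 ran from 9.6 to 27.7 and was not tested.

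Non-ATPases of the cap bind ubiquitin, hold the lid together and, through Psmd14, remove ubiquitin chains. Of 11, Psmd2 ran from 8.5 to 48.3 and was not tested, and 0 of the other 10 were called. Their medians were 0.13 for Terc knockout, 0.07 for Ku86 knockout and 0.25 for double knockout, with 6, 7 and 9 of 10 above 0, where 59.8%, 58.6% and 58.8% of all tested genes were. Centred on the median of tested probe sets, these medians were -0.02, -0.04 and 0.12, and over all probe sets -0.21, -0.16 and -0.01, so their direction depends on the scaling. On the same scales the medians of all tested genes were -0.06, -0.03 and -0.06, and then -0.24, -0.15 and -0.19.

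Psmd1 encodes a large scaffold subunit of the base of the cap. It read 376 and 362 on wild-type arrays, 413 and 366 on Terc knockout arrays, 351 and 422 on Ku86 knockout arrays, and 635 and 532 on double knockout arrays. The double knockout pair stood above all 6 other arrays. Its log2 difference from wild type was 0.66 ± 0.22 (SE), a 1.58-fold ratio, with a limma adjusted p of 0.448. That was the lowest adjusted p of any proteasome gene against wild type, and scan day 2 alone gave 0.56.

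Psmd11, a lid subunit tied to proteasome assembly, read 257 and 286 on wild-type arrays, 347 and 405 on Terc knockout arrays, 316 and 359 on Ku86 knockout arrays, and 406 and 430 on double knockout arrays. All 6 knockout arrays were above wild type on this probe set. The log2 differences were 0.47 ± 0.22 (SE) for Terc knockout, 0.31 ± 0.22 for Ku86 knockout and 0.62 ± 0.22 for double knockout, with limma adjusted p of 0.672, 0.808 and 0.469. Scan day 2 gave 0.39, 0.33 and 0.59. A second probe set, 160305_at, overlapped more and read -0.07 for Terc knockout, 0.01 for Ku86 knockout and 0.27 for double knockout. Another, 160304_r_at, had an interaction of -0.63 where 160305_at had 0.33.

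Psmd12, another lid subunit, read 101 and 109 on wild-type arrays, 183 and 164 on Terc knockout arrays, 50.0 and 120 on Ku86 knockout arrays, and 171 and 195 on double knockout arrays. These values are from probe set 93971_f_at. Psmd12 was higher on all 4 arrays labelled without Terc than on the 4 labelled with it, at 178 ± 13.7 (SD, n = 4) and 95.0 ± 30.9 (SD, n = 4). It was the single member of the 37 (2.7%) to separate in this way, beside 1.65% of all tested genes. The averaged log2 effect was 0.98 ± 0.27 (SE), a 1.97-fold ratio, with a limma adjusted p of 0.894. Without Ku86 knockout replicate 1, the array at 50.0, the effect was 0.67, and on scan day 2 alone it was 0.69.

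The Psmd12 promoter is shown because this gene separated arrays by Terc label and its window also holds a match. The windows of Psmb3, Psmb4, Psmd1, Psmd11 and Psma5, also named for their differences, held 0 matches to this core and are not shown. Capitals mark the core TGACNNNGC, here on the opposite strand, in the 250 bases before the start at chr11:107479278-107479527, plus strand, GRCm38.p6.
Psmd12: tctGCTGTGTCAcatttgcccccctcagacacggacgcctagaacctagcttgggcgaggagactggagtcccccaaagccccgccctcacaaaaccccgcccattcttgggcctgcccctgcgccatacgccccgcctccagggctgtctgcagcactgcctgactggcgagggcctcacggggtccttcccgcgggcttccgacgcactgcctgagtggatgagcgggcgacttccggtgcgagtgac

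Psmd7, a partner of the deubiquitinase Psmd14 in the lid, read 251 and 356 on wild-type arrays, 398 and 286 on Terc knockout arrays, 479 and 369 on Ku86 knockout arrays, and 525 and 406 on double knockout arrays. Ku86 and double knockout arrays were above wild type, and Terc knockout arrays overlapped it. The log2 difference was 0.49 ± 0.27 (SE) for Ku86 knockout and 0.63 ± 0.27 for double knockout, with limma adjusted p of 0.802 and 0.561. On scan day 2, with 1 array of each of these genotypes, they were 0.05 and 0.19. Without wild type replicate 1 they were 0.24 and 0.375. Psmd14 read 245 and 232 in wild type and 330 and 270 in Terc knockout, without overlap, at 0.33 ± 0.27 (SE) and an adjusted p of 0.736 by limma. With centring over all probe sets that difference was -0.00659. Psmd6 read 820 and 993 in wild type and 1074 on both Ku86 knockout arrays, at 0.25 ± 0.19 (SE) and a limma adjusted p of 0.818. For Psmd6 scan day 2 alone gave 0.11, and centring over all probe sets 0.0169. Psmd3, Psmd4, Psmd8 and Psmd13 differed from wild type by between -0.24 and 0.21 on the log2 scale in the 3 comparisons.

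**Figure D3:**
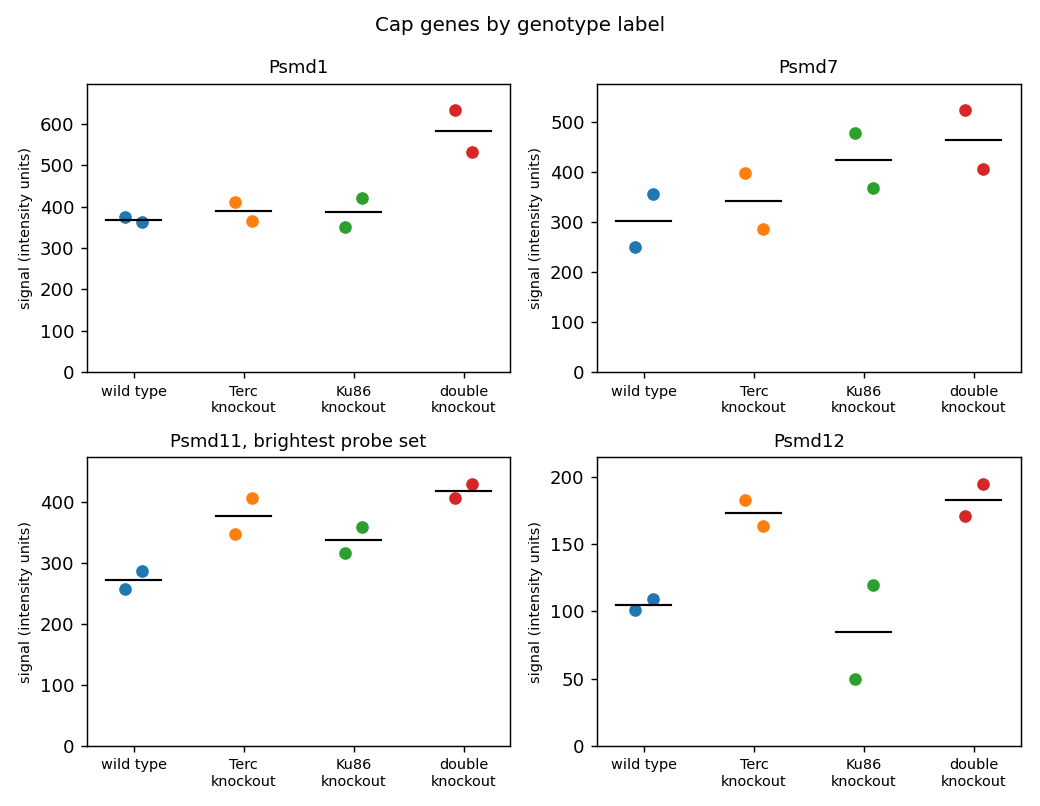
Signal in linear intensity units on each array (points, 2 per genotype label) with the genotype mean (bar), for 4 non-ATPase genes of the cap; each axis starts at 0. The double knockout points of Psmd1 are above all others, and Psmd12 is higher on the 4 arrays labelled without Terc. Psmd11, shown by its brightest probe set only, is above wild type on all 6 knockout arrays.

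**Figure D4:**
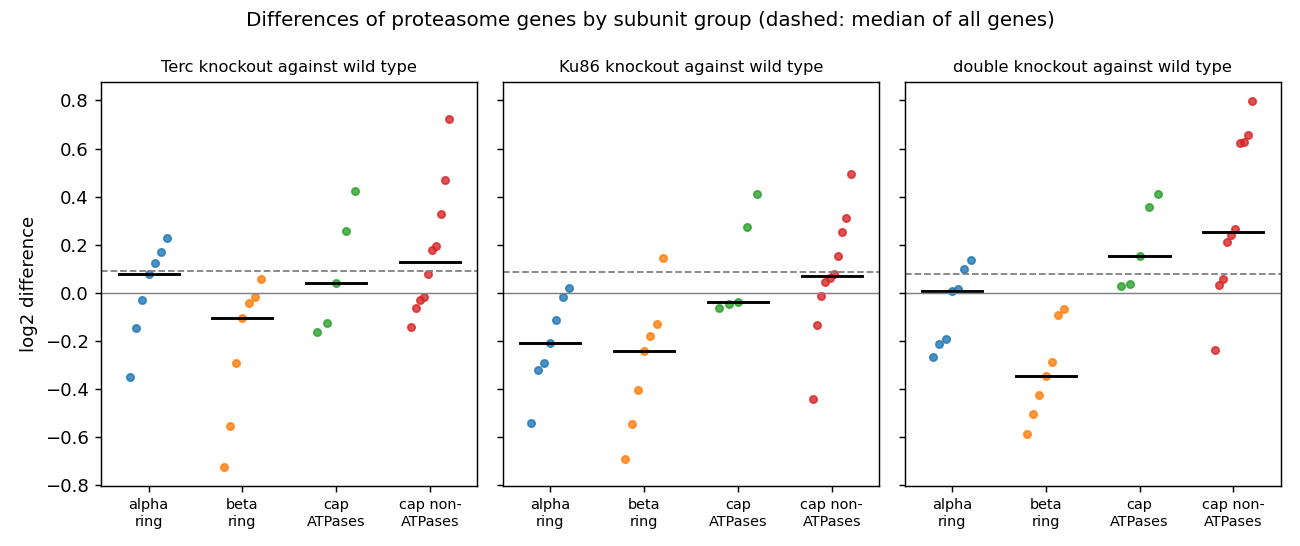
Each point is the log2 difference from wild type of 1 tested gene, grouped by place in the proteasome, for the 3 knockouts; bars are group medians and the dashed line the median of all tested genes. Read from brightest probe sets, the beta ring lies low in each panel (median -0.35 in the double knockout, -0.0934 with each gene's probe sets averaged). For Ku86 knockout the alpha ring (-0.21) lies near the beta ring (-0.24). The cap non-ATPases lie high in the double knockout (0.25). Centring the arrays on their medians moves the points and the dashed line together. In the double knockout the cap non-ATPases become 0.12 or -0.01, the beta ring -0.48 or -0.615, and all tested genes -0.06 or -0.19.

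Across the 37 genes, counts of genes whose genotypes did not overlap lay on both sides of the background. For Terc knockout, 7 genes were higher (18.9%) and 4 lower (10.8%), beside 24.5% and 12.9% of all tested genes. For Ku86 knockout 5 were higher (13.5%) and 8 lower (21.6%), beside 23.7% and 14.2%. For double knockout 6 were higher and 6 lower (16.2% each), beside 23.7% and 13.1%. The 3 comparisons share the wild-type arrays, so their lists are not independent. Differences over 0.5 in size on the log2 scale were found in 3 genes (8.11%), 3 genes (8.11%) and 7 genes (18.9%), beside 23.5%, 19.7% and 21.1% of all genes. In the averaged effects Psmd12 alone passed that size for Terc, 1 of 37 genes beside 9.24%, and 0 for Ku86, beside 8.79%, and in the interaction 6 did, beside 32%. No proteasome gene had all 4 arrays labelled without Terc below the 4 labelled with it, beside 0.723% of all genes. None had the 4 arrays with a Ku86 knockout label above the rest, beside 1.72%.

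The interaction asks whether losing 1 gene has another effect when the other is also lost. No proteasome gene was called. Psmb5 had an interaction of 1.00 ± 0.37 (SE) and Psmb6 of 0.76 ± 0.27, both with a limma adjusted p of 0.875. An interaction measures how far the double knockout lies from the single knockout differences added together. For both genes the double knockout fell less than that sum, and also less than either single knockout did. On scan day 2 the interactions were 0.32 and 0.41. There the Psmb5 double knockout difference, -0.33, lay between those of Terc knockout, -0.36, and Ku86 knockout, -0.29. The dimmer Psmb5 probe set gave -1.29.

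Immunoproteasome genes were at or near the floor, save Psmb10. Psmb8 read 3.6 and 24.0 in wild type, 7.9 and 14.4 in Terc knockout, 5.4 and 34.8 in Ku86 knockout, and 29.9 and 42.4 in double knockout. Psmb9 stayed between 5.6 and 14.4, and the brighter Psme1 probe set between 3.6 and 51.8. Psmb8 was above the floor on both double knockout arrays and on 3 of the 6 others, and Psmb9 never far from it. These 3 genes were under the filter and were not tested. Psme2 was named only by probe sets that also name another gene, and it is not counted here.

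Psmb10 was above the floor on all 8 arrays. It read 203 and 174 in wild type, 147 and 190 in Terc knockout, 144 and 183 in Ku86 knockout, and 155 and 232 in double knockout. The 4 genotypes overlapped. The 95% interval of the log2 difference ran from -0.82 to 0.47 for Terc knockout, from -0.85 to 0.43 for Ku86 knockout and from -0.63 to 0.66 for double knockout.

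The Psmb8 promoter is shown as that of an interferon-induced subunit. Capitals mark the gamma-activated site TTCNNNGAA, which reads the same pattern on both strands, in the 250 bases at chr17:34197945-34198194, plus strand, GRCm38.p6.
Psmb8: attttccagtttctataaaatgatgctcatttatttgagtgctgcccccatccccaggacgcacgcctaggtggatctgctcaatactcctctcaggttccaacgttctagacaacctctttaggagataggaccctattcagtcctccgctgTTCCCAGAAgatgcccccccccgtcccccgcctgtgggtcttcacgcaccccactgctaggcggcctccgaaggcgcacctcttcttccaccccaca
It was the 1 window of 36 (2.78%) with this motif, beside 7.02% of all windows. The interferon-stimulated element core GAAANNGAA was in 3 of 36 (8.33%) and in 7.13% of all. Those windows were of Psmb3, Psmd4 and Psmd9, and 0 of the 4 immunoproteasome windows held this core. Of 28 interferon and antigen-loading genes, 25 had a probe set, 10 were tested and 0 were called. Their median log2 differences were 0.31, 0.22 and 0.17 for Terc, Ku86 and double knockout. Macrophage and immune markers summed to between 1368 and 1660 over the 8 arrays. Of these 18 markers 10 passed the filter, Cd14 being brightest at 251 to 324, and Cd53 was the one at or under the floor on all 8 arrays.

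**Figure D5:**
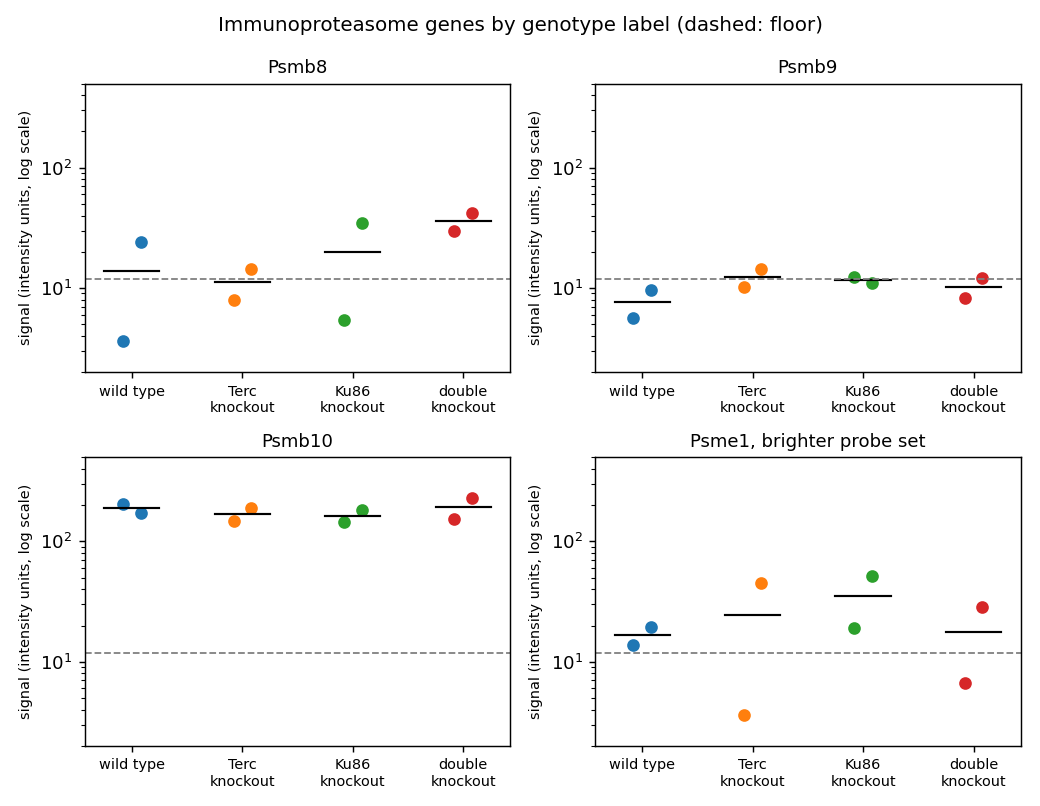
Signal of 4 immunoproteasome genes on each array (points, 2 per genotype label) with the genotype mean (bar), on a log scale in intensity units; the dashed line is the floor at 11.8. Psmb10 lies between 144 and 232 on every array, while no other plotted probe set is above 51.8 on any array.

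Psme4 encodes the PA200 activator of the testis. It read 1450 and 1820 in wild type, 1856 and 1448 in Terc knockout, 1985 and 1666 in Ku86 knockout, and 1633 and 1724 in double knockout. The genotypes overlapped, and the limma adjusted p over all 4 was 0.972. Psme3, the nuclear activator PA28 gamma, read 249 and 124 in wild type, 187 and 128 in Terc knockout, 226 and 169 in Ku86 knockout, and 375 and 169 in double knockout. Its replicates differed more than its genotypes, and the adjusted p was 0.938.

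Psmd5, Psmd9 and Psmd10 encode chaperones that hold ATPases during assembly of the cap and leave before it is finished. None of these 3 was called by limma in any of the 7 tests. Psmd5 replicates were far apart, at 283 and 86.8 in Ku86 knockout alone. Psmd9 read 331 and 373 in double knockout and 388 and 438 in wild type. Psmd10 ran from 61.6 to 144. Of the genes outside the proteasome, Psmc3ip ran from 660 to 894 and Psme3ip1 from 258 to 394, and neither was called.

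Further pathway genes without these symbols were taken from a list of 26 that covers assembly chaperones, ubiquitin receptors, deubiquitinases, Vcp partners and the Nfe2l factors. Of these, 16 had a probe set, 15 were tested and 0 were called in any of the 6 contrasts. Their median log2 differences were 0.10, 0.12 and 0.22 for Terc, Ku86 and double knockout. Uchl5, a deubiquitinase of the cap, read 463 and 320 in wild type and 276 and 153 in Terc knockout, at a log2 difference of -0.91 and a limma adjusted p of 0.672. Its differences were -0.40 for Ku86 knockout and -0.45 for double knockout. Rad23b, which carries ubiquitin chains to the cap, read 176 and 303 in wild type and 426 and 391 in Ku86 knockout, at 0.82 and an adjusted p of 0.802. In Terc knockout Rad23b read 315 and 444, at 0.70, and its double knockout difference was 0.42. The assembly chaperone Psmg3 read 337 and 404 in wild type and 547 and 565 in Ku86 knockout, at 0.59 and an adjusted p of 0.802. In Terc knockout Psmg3 read 425 and 670, at 0.53, and its double knockout difference was 0.22.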

How the data were processed

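Testis RNA from 8 arrays was used, 2 per genotype, with 15 micrograms of cRNA per array per the deposited scanner records. The deposited values are probe set intensities on a linear scale; the authors scaled each array, since their means without the outer 2% of probe sets lie close to 200.1. Which software made them: not given in the sources used here. They were used as deposited, floored, and filtered as the report says: 66 control and 5140 dim probe sets of 12488 were left out. Exactly 1 symbol was listed for 10855 probe sets and several for 396. Of the former, 10839 were matched by gene ID to GRCm38.p6. The suffixes _s_at and _f_at mark probe sets of shared specificity, and _i_at and _r_at mark other exceptions to the standard _at design.

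The limma package (version 3.58.1, R 4.3.3) fitted 1 linear model per probe set with lmFit and eBayes (trend on mean signal), with 1 mean per genotype, 4 residual degrees of freedom and Benjamini-Hochberg adjustment over 7282 probe sets at 0.05. Tests were two-sided. The code was tested on simulated data. The number of arrays limits the precision.

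Named genes were the immunoproteasome genes and their partners, Psme3, Psme4, genes outside the proteasome, those with probe sets over 0.5 apart in opposite directions, and, per contrast, up to 3 per direction by moderated t among those whose groups did not overlap. Psma7, Psmc1, Psmc3, Psmc6, Psmd9, Psmd13 and the pathway genes were named after their values were seen. The members and lists were chosen with earlier results of these data known. Alternatives covered normalization, floor, filter, probe sets, trend, blocks, threshold and each array left out.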

Additional observations from a re-analysis of the deposited data

How the results depend on the processing

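No proteasome gene was called in any of the 7 tests under any alternative run, and 0 remained the count with the experiment number as a replicate block and with scan day as a block. The lowest adjusted p of limma over all alternatives was 0.139. Deviations of same-numbered arrays from their genotype means correlated at 0.0126 to 0.254 over the 6 pairs of genotypes. The 3 pairs with double knockout were over 0.1 and the other 3 were not, so the numbers were not taken to pair the arrays. Scan day 2 alone, the filter on the unlogged mean and centring over all probe sets were chosen after seeing the data. So was the form of the planned median centring, over tested probe sets. The group medians moved more than the spread between replicates as follows, as log2 differences from wild type. With median centring they were -0.0726 (alpha ring), -0.25 (beta ring) and -0.0243 (cap non-ATPases) for Terc knockout, -0.0440 (cap non-ATPases) for Ku86 knockout and 0.12 (cap non-ATPases) for double knockout. With centring over all probe sets they were, for Terc, Ku86 and double knockout in turn, -0.26, -0.44 and -0.26 (alpha ring), -0.44, -0.48 and -0.61 (beta ring), -0.29, -0.27 and -0.11 (ATPases), and -0.21, -0.16 and -0.0128 (cap non-ATPases). With scan day as a block they were -0.0765 (alpha ring), -0.18 (ATPases) and 0.00962 (cap non-ATPases) for Terc knockout, and -0.0922 (beta ring) for Ku86 knockout. For double knockout they were -0.24 (alpha ring), -0.18 (beta ring), -0.0200 (ATPases) and 0.13 (cap non-ATPases). On scan day 2 alone they were -0.0765 (alpha ring), -0.18 (ATPases) and 0.00962 (cap non-ATPases) for Terc knockout, and -0.16 (alpha ring), -0.15 (beta ring), -0.11 (ATPases) and 0.0947 (cap non-ATPases) for double knockout. For Terc knockout, the scan day block, scan day 2 alone and leaving out wild type replicate 1 are the same estimate. In each of them only wild type replicate 2 stands against the Terc knockout arrays, so they are not separate checks. Averaging all probe sets of each gene gave beta-ring medians of -0.0501 for Ku86 and -0.0934 for double knockout. Leaving out each array in turn gave, for Terc knockout, -0.0812 to 0.19 (alpha ring), -0.26 to -0.0651 (beta ring), -0.18 to 0.13 (ATPases) and -0.0277 to 0.20 (cap non-ATPases). For Ku86 knockout it gave -0.33 to 0.0383 (alpha ring), -0.44 to -0.15 (beta ring) and -0.0219 to 0.18 (cap non-ATPases). For double knockout it gave -0.23 to 0.10 (alpha ring), -0.54 to -0.16 (beta ring), -0.0327 to 0.33 (ATPases) and 0.20 to 0.35 (cap non-ATPases). Single genes took the opposite sign when their probe sets were averaged: 0.14 for Psmb5 in Terc knockout, -0.15 for its interaction, and 0.34, 0.23 and 0.34 for Psmb4 in Ku86 knockout, double knockout and the averaged Ku86 effect. Psmd14 in Terc knockout became -0.00659 with centring over all probe sets. Psmb7 became 0.0832 (quantile normalization), 0.0160 (scan day as a block) and 0.0160 (scan day 2 alone) in Terc knockout, and 0.0237 (block) and 0.0428 (day 2) in double knockout. Psmb10 became 0.13 (block) and 0.0712 (day 2) in Ku86 knockout, and -0.10 (quantile normalization), -0.12 (median centring) and -0.25 (centring over all probe sets) in double knockout. Leaving out each array in turn, Psmb7 ran from -0.0689 to 0.0313 in Terc knockout and -0.19 to 0.00799 in double knockout, and Psmb10 from -0.36 to 0.0128 and from -0.28 to 0.30 in the same comparisons. A genotype left with 1 array was assumed to vary like the others. Centring subtracts 1 value from each array, so it moves every gene of a comparison by the same amount. With centring over all probe sets, the Terc knockout median of all tested genes went from 0.09 to -0.24. The cause of the moves under the other alternatives was not tested. With 2 arrays a genotype, only large differences could pass the adjusted threshold.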
